A study of Mus musculus with 22 samples.

Results

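The genes described here are 10 components of the NF-κB pathway, chosen by name from the 55291 gene names listed in each RNA-seq library: the subunits Nfkb1, Nfkb2, Rela and Rel, the inhibitors Nfkbia, Nfkbib, Nfkbid and Nfkbiz, and the feedback genes Tnfaip3 and Birc3. All 10 were found under these symbols. Their levels are given in FPKM, a read density corrected for gene length and library size, so levels of different genes can be set side by side. Of the 10 genes, 9 had a mean of at least 20 FPKM over the libraries compared and entered the tests, and Rel, with a mean of 10.4 FPKM over 7 libraries, did not.

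The RNA-seq part of the study holds 8 mouse libraries in 4 groups of 2, named by where the cells were recovered (tissue or circulating) and by their origin (ex-TRM, from tissue-resident memory T cells, or ex-Tcirc, from circulating memory T cells). All 8 libraries carry the same further labels, CD4+ T cells from lung of female Balb/c hosts aged 6 to 10 weeks, although the design text has circulating cells taken from blood. Per the labels' protocols, effector Th2 cells of OT-II creERT2 or DO11.10 T cell receptor transgenic mice, which recognise ovalbumin (OVA), were transferred into OVA-sensitised hosts, either BALB/c-nu/nu mice, which lack a thymus, or C57BL/6 (Ly5.2) mice. Tamoxifen, which activates the creERT2 recombinase, and an OVA rechallenge belong to the protocols, and 3000 to 50000 cells per population were sorted by congenic markers and CD69 at day 49 or day 71, depending on the experiment. The labels do not say which experiment, donor or host strain each RNA library represents, nor whether replicates were separate animals, so differences between experiments cannot be told apart from differences between groups, and p-values cover only how far replicate libraries scattered, which can be technical in origin.

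In resting cells NF-κB dimers are held in the cytoplasm by inhibitors of the IκB family, and signals from the T cell receptor with CD28, from cytokine receptors or from the TNF receptor family lead to phosphorylation and loss of IκB and to entry of the dimers into the nucleus. The dimers bind short κB sites in DNA and turn on effector genes together with several of their own inhibitors, which makes the pathway a textbook case of negative feedback. In T helper cells it is known for its part in activation, survival and cytokine production.

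Depth differed widely between libraries. Genes listed above 0 numbered 37471 and 37894 for tissue ex-TRM, while tissue ex-Tcirc had 30488 and 32617, with 29688 in circulating ex-TRM replicate 2, and 12785 and 7042 in circulating ex-Tcirc. From the spacing of low FPKM values, the circulating ex-Tcirc libraries had 8.6% and 4.01% of the depth of tissue ex-TRM replicate 1, and the other libraries had 24.0% to 90%. Circulating ex-TRM replicate 1 listed 917 genes and 1 of 12 housekeeping genes above 0, and was treated as missing, so circulating ex-TRM rests on 1 library and adds no spread. All 8 T cell markers were above 0 in the other libraries except circulating ex-Tcirc, where Cd3d was at 0 in both replicates and Lck in replicate 2, and the summed T cell marker list was 1350 to 1839 FPKM in tissue and 1416 to 1877 FPKM in circulation. Since these are bulk samples, fewer cells of a type and less RNA per cell cannot be told apart.

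Several of these genes carry κB letters near an annotated transcription start of their own. In RefSeq windows of 250 bases before to 50 after each start (GRCm38.p6, the sequence of mm10), a match to the 10-letter κB consensus, searched on both strands, stood in 7 of the 13 windows available for 8 of the 10 genes, and in 5 of those 8 genes, namely Nfkbia, Tnfaip3, Rel, Nfkb2 and Nfkbid. Of all 32851 windows in the same table, 4.51% held a match, in 5.14% of gene symbols. The sequences below are shown because they are the promoter stretches of these 5 genes that hold the matches. They are written 5′ to 3′ on the strand of the gene, with bases of a match in capitals, overlapping matches joined. The stretches of Nfkbia, Tnfaip3 and Rel are the 150 bases before the start, at chr12:55492648-55492797, chr10:19015411-19015560 and chr11:23770970-23771119, all on the minus strand.
Nfkbia: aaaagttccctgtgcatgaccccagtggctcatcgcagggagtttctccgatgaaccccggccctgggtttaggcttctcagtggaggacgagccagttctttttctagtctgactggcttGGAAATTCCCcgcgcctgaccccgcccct
Tnfaip3: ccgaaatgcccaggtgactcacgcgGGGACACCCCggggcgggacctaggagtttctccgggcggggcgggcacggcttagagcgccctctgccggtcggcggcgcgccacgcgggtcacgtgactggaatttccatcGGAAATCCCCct
Rel: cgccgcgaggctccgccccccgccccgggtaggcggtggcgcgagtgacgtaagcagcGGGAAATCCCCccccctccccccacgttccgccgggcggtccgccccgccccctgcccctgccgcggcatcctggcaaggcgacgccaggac

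The matches of Nfkb2 and Nfkbid stand near later annotated starts, inside genes that begin at chr19:46300994 and chr7:30421731. They are shown in windows of 30 bases, all on the plus strand. Those of Nfkb2 lie at chr19:46304688-46304717, chr19:46304716-46304745, chr19:46305449-46305478 and chr19:46305695-46305724, the last beginning at one of the annotated starts of the gene, and those of Nfkbid at chr7:30422170-30422199 and chr7:30422215-30422244.
Nfkb2 site a: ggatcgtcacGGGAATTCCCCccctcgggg
Nfkb2 site b: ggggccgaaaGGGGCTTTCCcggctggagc
Nfkb2 site c: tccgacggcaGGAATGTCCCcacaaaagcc
Nfkb2 site d: tggtattttcGGGACTTTCCtaagcagcac
Nfkbid site a: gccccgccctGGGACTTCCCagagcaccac
Nfkbid site b: gggccgaacaGGAATTCCCCgtgcgcgggg

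The match nearest to its start began 29 bases before it in Nfkbia, 12 bases before it in Tnfaip3 and 91 bases before it in Rel. Site d of Nfkb2 began 10 bases after one annotated start and 225 bases before another, so it fell in overlapping windows. Such a match describes letters only. No binding or accessibility data were used, so occupancy of these stretches was not tested.

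In each of the 7 libraries Tnfaip3 and Nfkbia stood above all 4 subunits. Tnfaip3, the ubiquitin-editing enzyme that shuts off signalling upstream of the IκB kinase, was the highest at a mean of 608 FPKM over 7 libraries, followed by Nfkbia, the IκBα gene and the best known NF-κB feedback gene, at 327 FPKM. Nfkbiz followed at 135, Nfkb1 at 120, Birc3 at 57.5, Nfkbid at 42.1, Nfkb2 at 40.3, Rela at 27.9, Nfkbib at 21.7 and Rel at 10.4 FPKM. Tnfaip3 was 1.5 to 2.2 times the level of Nfkbia in each library, so these neighbours kept their order. Nfkbiz and Nfkb1 did not, since Nfkb1 was the higher in tissue ex-TRM replicate 1 and tissue ex-Tcirc replicate 1 and Nfkbiz in the other libraries, and the ranges of Birc3, Nfkbid, Nfkb2, Rela and Nfkbib also overlapped.

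Tnfaip3 ranked between 6 and 19 among protein-coding genes in each of the 7 libraries, and Nfkbia between 24 and 48. The sum of the 10 genes was 0.923% and 0.824% of all protein-coding FPKM in tissue ex-TRM against 0.664% and 0.832% in tissue ex-Tcirc, 0.766% in circulating ex-TRM replicate 2, and 0.686% and 1.28% in circulating ex-Tcirc. Within that sum, Tnfaip3 and Nfkbia together held 63.7% to 64.8% in the 4 tissue libraries and circulating ex-TRM replicate 2. Their share was 75.4% and 78.0% in circulating ex-Tcirc, the shallow libraries in which 3 and 5 of the 10 genes were listed at 0. The immediate early genes Fos, Fosb, Jun, Egr1, Ier2, Dusp1, Atf3, Hspa1a and Hspa1b, which cell handling can induce, summed to 1717 to 2626 FPKM in tissue and 1410 to 1529 FPKM in circulation, and their part in these levels was not tested.

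**Figure D1:**
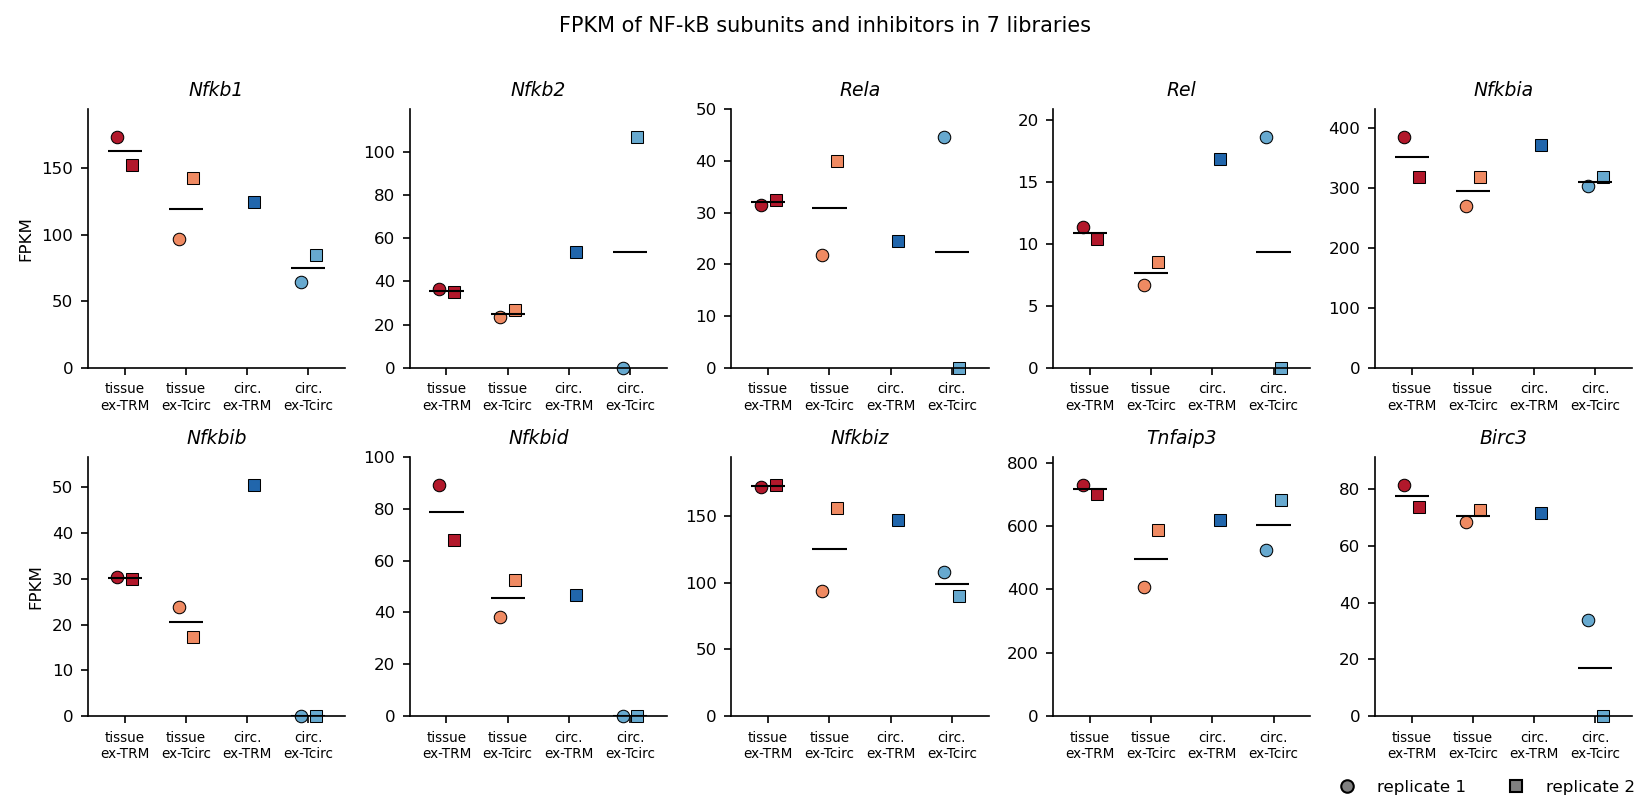
FPKM of each gene (vertical axis, starting at 0, a different scale in each panel) in the 2 tissue groups (left, red and orange) and the 2 circulating groups (right, blue); circles are replicate 1, squares replicate 2 and black lines means of 2 libraries. Tnfaip3, Nfkbia, Nfkbiz and Nfkb1 were above 0 in all 7 libraries, whereas Nfkbib and Nfkbid were at 0 in both circulating ex-Tcirc libraries.

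Among the subunits, Nfkb1, which encodes a precursor whose processed form pairs with Rela or Rel, had the highest mean, although Nfkb2 exceeded it in circulating ex-Tcirc replicate 2. Nfkb1 was at 174 and 153 FPKM in tissue ex-TRM against 96.4 and 142 in tissue ex-Tcirc, 125 in circulating ex-TRM replicate 2, and 64.6 and 84.8 in circulating ex-Tcirc. Both circulating ex-Tcirc values lay below all 5 others in FPKM, but with the same protein-coding sum replicate 2 was at 141, above both tissue ex-Tcirc libraries at 102 and 139. Rela, the subunit with the main activation domain of the canonical dimer, was at 31.6 and 32.5 FPKM in tissue ex-TRM and 21.9 and 40.0 in tissue ex-Tcirc, against 24.5 in circulating ex-TRM replicate 2 and 44.7 and 0 in circulating ex-Tcirc. The groups overlapped for Rela, and within tissue the 2 ex-Tcirc libraries enclosed the ex-TRM libraries. Nfkb1 was 3.55 to 5.50 times the level of Rela in the 4 tissue libraries and 5.08 times in circulating ex-TRM replicate 2, but 1.445 times in circulating ex-Tcirc replicate 1.

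Nfkb2 encodes the precursor of the non-canonical pathway. It was at 36.4 and 35.1 FPKM in tissue ex-TRM against 23.5 and 26.6 in tissue ex-Tcirc, 53.6 in circulating ex-TRM replicate 2, and 0 and 107 in circulating ex-Tcirc. The last pair spanned the whole range of the other libraries. Nfkb2 overlaps the lncRNA 4833438C02Rik and Psd on the genome, at means of 13 and 6.86 FPKM over 7 libraries, and the strand setting of the counting is not given in the sources used here. Rel, the c-Rel subunit known from lymphocyte activation, was at 11.4 and 10.4 FPKM in tissue ex-TRM and 6.73 and 8.58 in tissue ex-Tcirc, against 16.9 in circulating ex-TRM replicate 2 and 18.7 and 0 in circulating ex-Tcirc. It was the lowest of the subunits in each of the 5 deeper libraries.

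Of the classical cytoplasmic inhibitors, Nfkbia, whose promoter letters are shown above, varied less in tissue than Nfkbib. Nfkbia was at 386 and 319 FPKM in tissue ex-TRM against 271 and 318 in tissue ex-Tcirc, 372 in circulating ex-TRM replicate 2, and 304 and 318 in circulating ex-Tcirc. On this scale all 3 circulating values lay inside the range of the tissue values, whereas with the same protein-coding sum circulating ex-Tcirc replicate 2 was at 529, above the tissue range of 276 to 342. Nfkbia had a coefficient of variation of 14.6% over the 4 tissue libraries. Nfkbib, the IκBβ gene, was at 30.4 and 29.9 FPKM in tissue ex-TRM and 23.8 and 17.2 in tissue ex-Tcirc, against 50.6 in circulating ex-TRM replicate 2 and 0 in both circulating ex-Tcirc libraries. Its highest value was thus in one circulating group and its lowest in the other. Nfkbib overlaps Ccer2, which was at a mean of 1.33 FPKM.

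The nuclear IκB proteins bind NF-κB on DNA and tune single target genes. Nfkbid, the gene of IκBNS, was at 89.3 and 68.0 FPKM in tissue ex-TRM against 38.3 and 52.6 in tissue ex-Tcirc, 46.7 in circulating ex-TRM replicate 2, and 0 in both circulating ex-Tcirc libraries. Both tissue ex-TRM libraries were above all others, and circulating ex-TRM replicate 2 fell within the range of tissue ex-Tcirc in FPKM. Nfkbiz, the gene of IκBζ, was at 172 and 174 FPKM in tissue ex-TRM against 93.8 and 157 in tissue ex-Tcirc, 148 in circulating ex-TRM replicate 2, and 108 and 89.9 in circulating ex-Tcirc. Nfkbiz was 1.93 to 3.16 times the level of Nfkbid in the 5 libraries that listed both.

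Tnfaip3 was at 731 and 701 FPKM in tissue ex-TRM against 406 and 589 in tissue ex-Tcirc, 618 in circulating ex-TRM replicate 2, and 525 and 684 in circulating ex-Tcirc. Tissue ex-TRM was the highest group and tissue ex-Tcirc replicate 1 the lowest library, and the circulating libraries lay between them. With the same protein-coding sum per library this order turned, since circulating ex-Tcirc replicate 2 reached 1139, above the 648 and 606 of tissue ex-TRM. Birc3, a ubiquitin ligase of the inhibitor of apoptosis family that limits non-canonical signalling, was at 81.7 and 73.9 FPKM in tissue ex-TRM and 68.4 and 72.7 in tissue ex-Tcirc, against 71.7 in circulating ex-TRM replicate 2 and 33.8 and 0 in circulating ex-Tcirc. Birc3 varied least of the 10 genes over the 4 tissue libraries, with a coefficient of variation of 7.49%, and Nfkbid most, with 35.2%.

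Zeros were more frequent among genes of low tissue level in circulating ex-Tcirc replicate 2, the shallower library. Of the 386 protein-coding genes with a tissue mean of 50 to 100 FPKM, the class of Nfkbid and Birc3, 7.77% were at 0 in circulating ex-Tcirc replicate 1, 46.1% in replicate 2 and 7.51% in both. Of the 1381 genes with a tissue mean of 20 to 50 FPKM, the class of Nfkb2, Rela and Nfkbib, 22.9% were at 0 in replicate 1, 60.4% in replicate 2 and 21.4% in both, against 0.579% in circulating ex-TRM replicate 2. None of the 144 genes at 100 to 200 FPKM, the class of Nfkb1 and Nfkbiz, was at 0 in circulating ex-Tcirc replicate 1, but 31.2% were at 0 in replicate 2, as were 12.9% of the 62 genes at 200 FPKM or more, the class of Nfkbia and Tnfaip3. Zeros in both libraries were thus more frequent in the class of Nfkbib than in that of Nfkbid. The class of Nfkbid rests on its tissue ex-TRM values of 89.3 and 68.0 FPKM. Its tissue ex-Tcirc mean was 45.5 FPKM, within the 20 to 50 class, so no contrast between the 2 genes is drawn from this.

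**Figure D2:**
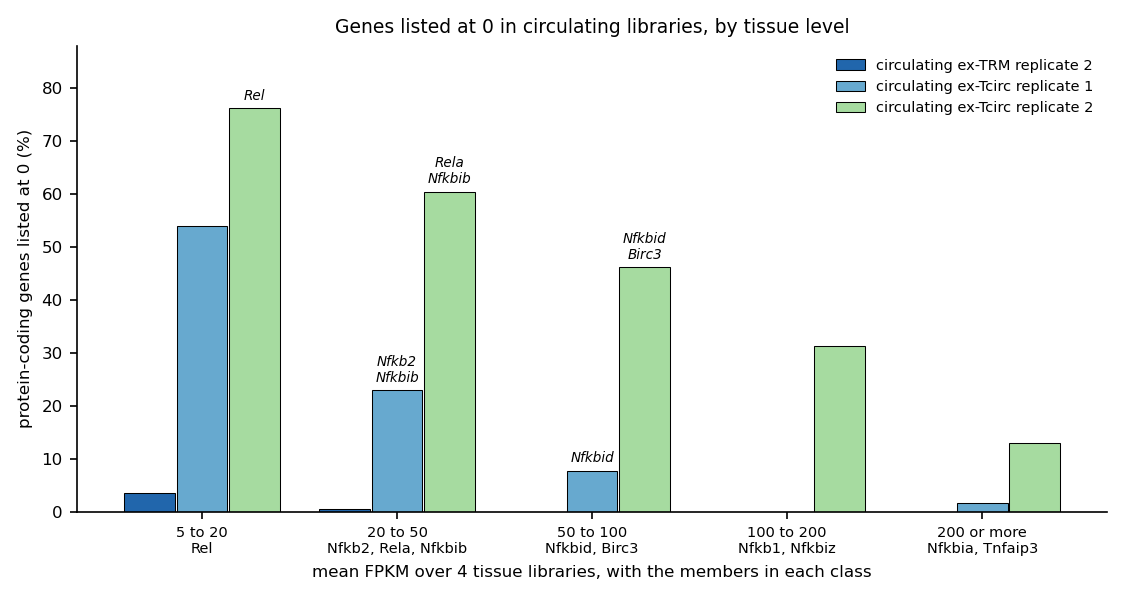
Share of protein-coding genes listed at 0 (vertical axis, percent) in circulating ex-TRM replicate 2 and circulating ex-Tcirc replicates 1 and 2, by mean FPKM over the 4 tissue libraries (horizontal axis); names above a bar are the NF-κB genes at 0 in that library. The share in circulating ex-Tcirc replicate 2 was 76.2% at 5 to 20 FPKM and 12.9% at 200 FPKM or more.

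The first comparison asked how cells in tissue differ from cells in circulation, averaged over both origins. Nfkbid was higher in tissue by 3.12 ± 0.33 on the log2 scale (SE; adjusted p = 0.0253 by limma), and the other 8 genes tested did not pass. This call rests on circulating ex-Tcirc: the difference was 0.34 (adjusted p = 0.489) without its 2 libraries, an alternative chosen after the data were seen, so that 4 tissue libraries faced circulating ex-TRM replicate 2. It was also lost on omission of any single tissue library, with log2 differences of 3.01 to 3.24. Over all alternatives its adjusted p by limma ran between 0.000517 and 0.489. Over all 2656 genes tested 195 passed, which is 7.34%, so 1 of 9 is near the background. Without circulating ex-Tcirc replicate 1 or 2, each circulating group held 1 library, so no count of these genes passing is given. Nfkbid reached the minimum mean of 20 FPKM for testing only with its tissue values. Its circulating values were 46.7, 0 and 0 FPKM, so its entry into the test depended on the high side of this comparison. Since a pair of zeros adds no spread and its log2 difference depends on the 1 added to each FPKM, the value of Nfkbid, which was 4.78 with 0.1 added instead, is not read as a fold.

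The abundant genes had narrower intervals than the rare ones, and these included 0. Tnfaip3 had a log2 difference of -0.04 (95% interval -0.66 to 0.57) and Nfkbia one of -0.08 (-0.56 to 0.39). Both signs turned with median-of-ratios factors, at 0.16 and 0.12. On the log2 scale Nfkbiz differed by 0.26 ± 0.27 and Nfkb1 by 0.52 ± 0.25 (SE; limma, adjusted p = 0.714 and 0.413). Nfkbib stood at 1.84 ± 0.37 (limma, adjusted p = 0.0719), but at -1.0 without the circulating ex-Tcirc libraries. Rela, Nfkb2 and Birc3, each at 0 in 1 of the circulating ex-Tcirc libraries, had differences of 1.28 ± 1.54, 0.38 ± 1.85 and 1.86 ± 1.41, with errors too wide to place them. The median over the 9 genes was 0.52, beside 0.43 over all genes tested, and none of the 10 genes separated the 4 tissue from the 3 circulating libraries without overlap, as 12.1% of all genes did with tissue higher and 11.8% with tissue lower.

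Within ex-Tcirc, tissue minus circulating, both genes at 0 in circulation passed. Nfkbid differed by 5.52 ± 0.41 and Nfkbib by 4.41 ± 0.46 on the log2 scale (SE; limma, adjusted p = 0.00615 and 0.00843). With 0.1 in place of 1 added to FPKM these were 8.81 and 7.67, so neither is read as a fold. That is 2 of 9, where 9.11% of all genes passed, and both calls were lost on omission of any single tissue library. Nfkb1, Nfkbib, Nfkbid and Birc3 were higher in tissue ex-Tcirc than in circulating ex-Tcirc without overlap, 4 of 9 genes tested, beside 29.9% of all genes, but Nfkb1 overlapped with the same protein-coding sum. Tnfaip3 and Nfkbia had log2 differences of -0.29 ± 0.29 and -0.08 ± 0.22 (limma, adjusted p = 0.540 and 0.800).

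Within ex-TRM, tissue minus circulating, no gene passed among the 2656 tested (0%; 87 at an unadjusted p under 0.05), with 1 library on the circulating side. Nfkbid had a log2 difference of 0.73 ± 0.51, Tnfaip3 one of 0.21 ± 0.35 and Nfkb1 one of 0.38 ± 0.39, whereas Nfkbib was at -0.73 ± 0.57 (SE; limma, adjusted p = 1 for each). The difference of the location effect between origins, ex-TRM minus ex-Tcirc, was -4.79 ± 0.65 for Nfkbid and -5.14 ± 0.73 for Nfkbib, each just short of the threshold (limma, adjusted p = 0.0509). Over all genes 4 passed, or 0.151%. Both genes passed with 0.1 in place of 1 added to FPKM and with lower minimums on the mean, settings under which many more of all genes passed. No gene passed with median-of-ratios factors, library weights, the replicate number as a block or all 8 libraries.

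**Figure D3:**
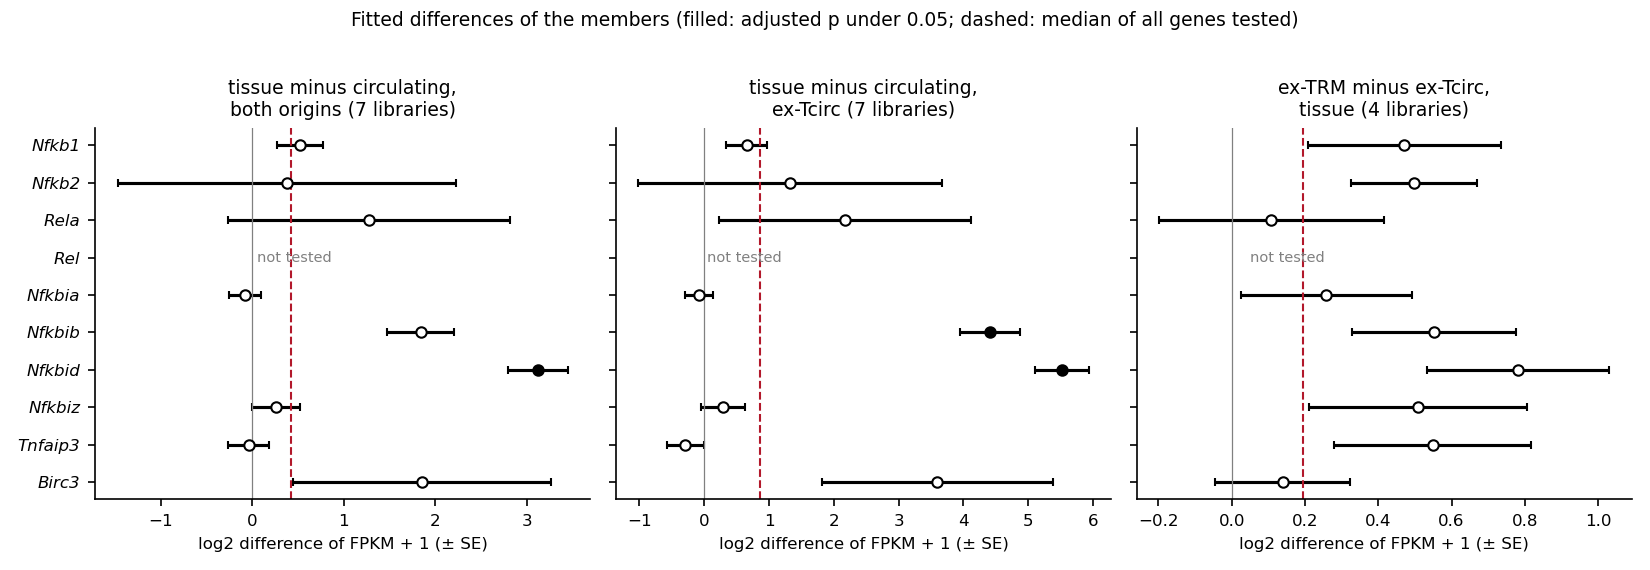
Log2 difference of FPKM + 1 (horizontal axes, each with its own scale) for the 9 genes tested, with SE as bars, for tissue minus circulating over both origins, the same within ex-Tcirc, and ex-TRM minus ex-Tcirc in tissue; filled points passed at an adjusted p under 0.05 and the dashed line is the median of all genes tested. Tnfaip3 and Nfkbia sat near 0 in both comparisons with circulation. All 9 genes lay above 0 in the comparison of origins in tissue, of which Rela and Birc3 turned with the same protein-coding sum.

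The comparison of origins was best covered in tissue, where all 4 libraries listed all 10 genes. On the deposited scale all 9 genes tested were higher in tissue ex-TRM by their log2 difference, of which Rela and Birc3 turned with the same protein-coding sum, as were 70.2% of all 2818 genes tested and 86.1% of protein-coding ones. None of the 9 passed, nor did any other gene (limma, 0%; 215 at an unadjusted p under 0.05, smallest adjusted p = 0.0968). Without tissue ex-Tcirc replicate 2, 429 genes passed, none of them among the 9. Nfkbid had the largest log2 difference at 0.78 ± 0.25 and Nfkb2 one of 0.50 ± 0.17 (SE; limma, unadjusted p = 0.0244 and 0.0320, adjusted p = 0.488 for both). These are 2 of 9 at an unadjusted p under 0.05, beside 7.63% of all genes. Nfkbib was at 0.55 ± 0.22, Tnfaip3 at 0.55 ± 0.27, Nfkbiz at 0.51 ± 0.30, Nfkb1 at 0.47 ± 0.26, Nfkbia at 0.26 ± 0.23, Birc3 at 0.14 ± 0.18 and Rela at 0.11 ± 0.31. The median over the 9 genes was 0.50, against 0.20 over all genes and 0.28 over protein-coding genes.

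Tissue ex-TRM exceeded tissue ex-Tcirc without overlap in 8 of the 9 genes tested and in Rel, where 43.2% of all genes and 56.5% of protein-coding genes did so. For Nfkbia the nearest values were 319 and 318 FPKM. Tissue ex-Tcirc replicate 1 was the lowest of the 4 libraries for 9 of the 10 genes, Nfkbib being the exception, and for 74.2% of the 1973 protein-coding genes tested. This library had 24.0% of the depth of tissue ex-TRM replicate 1. It also held the largest tissue sums of myeloid markers (148 FPKM, 6 of 8 above 0) and alveolar markers (68.7 FPKM, 4 of 5 above 0), against 46.1 to 102 and 3.99 to 8.33 FPKM in the other 3 tissue libraries. The immunoglobulin genes Ighm and Igkc were at 111 and 281 FPKM there, against 7.11 to 21.0 and 12.1 to 41.4 FPKM in the other 3, with Cd79a and Cd79b at 0 in all 4. The part of these transcripts in the lower NF-κB values was not tested.

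When every library was scaled to the same protein-coding sum, 5 of the 10 genes stayed higher in tissue ex-TRM without overlap, namely Nfkb2, Rel, Nfkbib, Nfkbid and Tnfaip3. That is 4 of the 9 tested genes, beside 17.2% of all genes and 23.5% of protein-coding genes. Rela and Birc3 changed sign, to log2 differences of -0.10 and -0.08. The median over the 9 genes was 0.29 on this scale, against -0.02 over all genes. With median-of-ratios factors it was 0.68, against 0.38 over all genes, and as TPM 0.62, against 0.32. All 9 genes had a positive log2 difference under both of these.

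**Figure D4:**
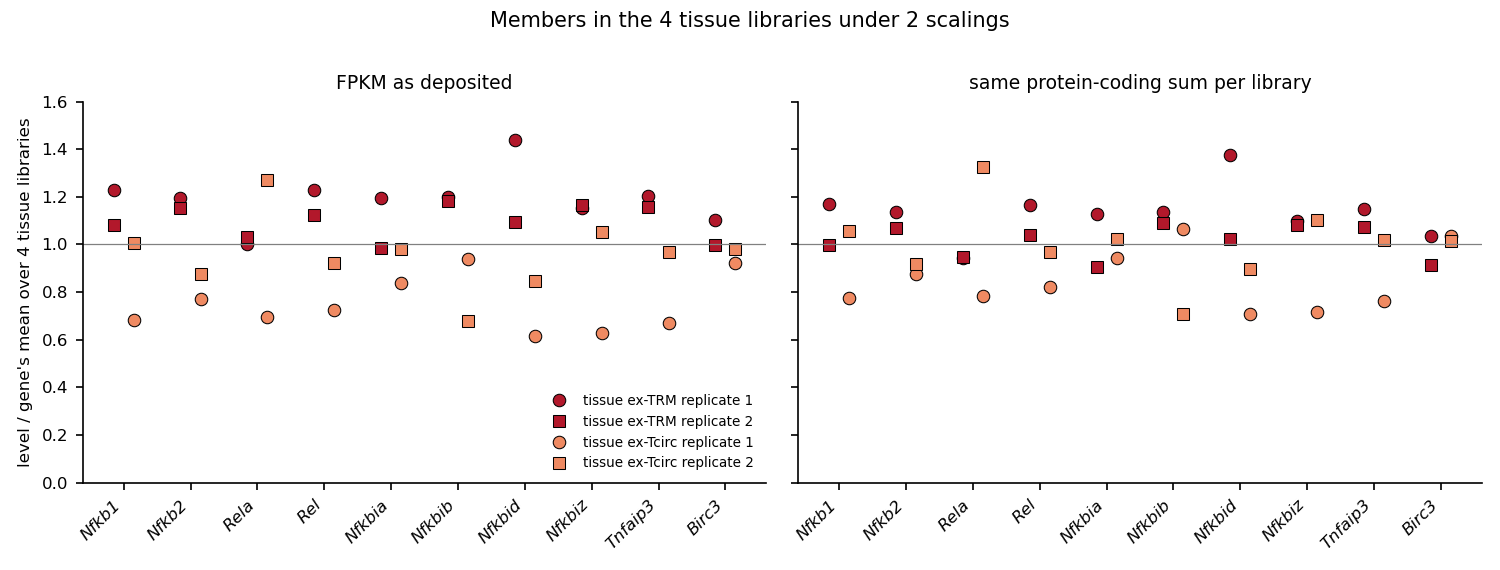
Level of each gene divided by its mean over the 4 tissue libraries (vertical axis), for FPKM as deposited (left) and after scaling to the same protein-coding sum (right); red marks tissue ex-TRM, orange tissue ex-Tcirc, circles replicate 1 and squares replicate 2. Tissue ex-Tcirc replicate 1 was lowest for 9 of 10 genes in FPKM, and 5 of 10 genes kept tissue ex-TRM above tissue ex-Tcirc after scaling.

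In circulation, where ex-TRM is 1 library and both ex-Tcirc libraries are shallow, ex-TRM minus ex-Tcirc gave log2 differences of 5.58 ± 0.51 for Nfkbid and 5.69 ± 0.57 for Nfkbib (SE; limma, adjusted p = 0.0152 for both), and 8.87 and 8.99 with 0.1 added to FPKM. These are 2 of 9 genes, where 6.63% of all genes passed, and both calls were lost on omission of any single tissue library from the shared spread. They share the ex-Tcirc zeros with the comparisons above. Nfkbib, with a mean of 21.7 FPKM over 7 libraries, reached the minimum mean for testing only through circulating ex-TRM replicate 2, at 50.6 FPKM. Its entry into the test thus depended on the high side of this comparison. Without that library it fell below the minimum, also for the comparison within ex-Tcirc. Circulating ex-TRM replicate 2 lay above both ex-Tcirc libraries in 6 of the 9 genes tested, beside 47.1% of all genes, but no longer in Nfkb1, Nfkbia and Nfkbiz with the same protein-coding sum. Tnfaip3 was at 0.04 ± 0.35 and Nfkbia at 0.26 ± 0.27 (limma, adjusted p = 0.953 and 0.670).

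Transcripts listed as markers of other cell types were present in the circulating ex-Tcirc libraries that set these calls. Their myeloid marker sums were 705 and 300 FPKM, with 5 and 2 of 8 markers above 0, mostly Lyz2 at 646 and 255 FPKM. Csf1r was at 10.9 and 45.2 FPKM, Fcer1g, Mrc1 and Cd68 were at 20.3, 15.6 and 12.4 FPKM in replicate 1 and at 0 in replicate 2, and Itgam, Adgre1 and Tyrobp were at 0 in both. Circulating ex-TRM replicate 2 had 62.5 FPKM with 5 of 8 above 0. Alveolar markers summed to 514 and 0 FPKM in circulating ex-Tcirc, from Sftpc and Sftpa1, and to 28.9 FPKM in circulating ex-TRM replicate 2. Igkc was at 161 and 0 FPKM in circulating ex-Tcirc and at 24.9 FPKM in circulating ex-TRM replicate 2, with Cd79a and Cd79b at 0 in all 3. Endothelial markers summed to 60.5 and 5.53 FPKM in circulating ex-Tcirc and to 19.7 FPKM in circulating ex-TRM replicate 2. In circulating ex-Tcirc, Pecam1 was at 52.3 and 5.53 FPKM and Cldn5 at 8.14 and 0 FPKM, with Cdh5 and Kdr at 0. The neutrophil genes S100a8 and S100a9 were at 0 throughout. The part of these transcripts in the NF-κB values was not tested.

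Around the family, the list of other subunits, IκB genes and kinases held Relb, Nfkbie, Bcl3, Nfkbil1, Ikbkg, Chuk and Ikbkb. In each fit 2 of these 7 genes were abundant enough to test, and none passed in any of the 6 comparisons. Ikbkb, a catalytic subunit of the IκB kinase, was at 62.3 and 61.6 FPKM in tissue ex-TRM against 48.5 and 52.3 in tissue ex-Tcirc, 63.3 in circulating ex-TRM replicate 2, and 35.0 and 107 in circulating ex-Tcirc. Its tissue minus circulating log2 difference over both origins was -0.15 ± 0.47. Nfkbie, the IκBε gene, was at 22.3 and 22.7 FPKM in tissue ex-TRM and 15.7 and 18.4 in tissue ex-Tcirc, against 34.5 in circulating ex-TRM replicate 2 and 29.3 and 0 in circulating ex-Tcirc.

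Of 23 receptor-proximal activators none of the 10 or 11 tested passed in any comparison. Malt1, the protease and scaffold that links the antigen receptor to the IκB kinase, was at 191 and 173 FPKM in tissue ex-TRM against 73.3 and 113 in tissue ex-Tcirc, 113 in circulating ex-TRM replicate 2, and 78.3 and 62.9 in circulating ex-Tcirc. Its tissue difference of origins, ex-TRM minus ex-Tcirc, was 0.99 ± 0.27 (limma, adjusted p = 0.488), the larger values lying in both ex-TRM libraries. Prkcq, the kinase that relays receptor signals towards Malt1, was at 62.3 and 63.1 FPKM in tissue ex-TRM and 61.6 and 59.5 in tissue ex-Tcirc, against 118 in circulating ex-TRM replicate 2 and 85.1 and 93.3 in circulating ex-Tcirc. All 3 circulating values were above all tissue values, with a tissue minus circulating log2 difference of -0.72 ± 0.19 (limma, adjusted p = 0.136). In tissue, all 10 tested activators were higher in ex-TRM by their log2 difference on the deposited scale. So were 70.2% of all genes and 86.1% of protein-coding ones. The median of the activators was 0.47, beside 0.20 over all genes and 0.28 over protein-coding genes.

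Of 13 ubiquitin editors and feedback genes, 4 were tested over 7 libraries and Rbck1 passed, where 7.34% of all genes did. Rbck1, a subunit of the linear ubiquitin ligase, was at 43.8 and 45.3 FPKM in tissue ex-TRM against 26.3 and 40.0 in tissue ex-Tcirc, 60.1 in circulating ex-TRM replicate 2, and 0 in both circulating ex-Tcirc libraries, the same pattern of zeros as Nfkbib and Nfkbid. Its log2 difference, tissue minus circulating over both origins, was 2.32 ± 0.35 (limma, adjusted p = 0.0378), a call lost on omission of any single tissue library. Tax1bp1, a partner of the Tnfaip3 product, was at 89.6 and 83.7 FPKM in tissue ex-TRM against 53.8 and 80.9 in tissue ex-Tcirc, 78.9 in circulating ex-TRM replicate 2, and 42.5 and 0 in circulating ex-Tcirc. Zc3h12a, an RNase that degrades inflammatory transcripts, was at 42.1 and 43.2 FPKM in tissue ex-TRM and 16.3 and 25.1 in tissue ex-Tcirc, against 51.4 in circulating ex-TRM replicate 2 and 59.9 and 0 in circulating ex-Tcirc. Its tissue difference of origins was 1.04 ± 0.24 (limma, adjusted p = 0.488).

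Of 20 textbook target genes, 9 were tested and Csf2 passed, again beside 7.34% of all genes. Csf2, the GM-CSF gene, was at 44.4 and 34.4 FPKM in tissue ex-TRM against 31.3 and 21.2 in tissue ex-Tcirc, 48.2 in circulating ex-TRM replicate 2, and 0 in both circulating ex-Tcirc libraries. Its log2 difference, tissue minus circulating over both origins, was 2.22 ± 0.37 (limma, adjusted p = 0.0461), also lost on omission of any single tissue library. Like Nfkbid, Csf2 reached the minimum mean of 20 FPKM for testing only with its tissue values. Rbck1 and Csf2 also passed within ex-Tcirc and between origins in circulation, through the same zeros, so their differences are not read as folds. Within ex-TRM both were lower in tissue, with log2 differences of -0.42 for Rbck1 and -0.30 for Csf2. Junb, an AP-1 subunit, was at 538 and 497 FPKM in tissue ex-TRM against 347 and 424 in tissue ex-Tcirc, 415 in circulating ex-TRM replicate 2, and 295 and 356 in circulating ex-Tcirc. Gadd45b, a stress gene that NF-κB induces, was at 256 and 170 FPKM in tissue ex-TRM against 157 and 170 in tissue ex-Tcirc, 95.3 in circulating ex-TRM replicate 2, and 45.5 and 0 in circulating ex-Tcirc, so every tissue library was above every circulating one (log2 difference 2.86 ± 1.52; limma, adjusted p = 0.448). All 9 tested targets were higher in tissue by their log2 difference on the deposited scale, as were 63.3% of all genes and 67.5% of protein-coding ones. Their median was 1.11, beside 0.43 over all genes and 0.51 over protein-coding genes. Within ex-Tcirc the median of the targets was 2.58, beside 0.87 over all genes. Both medians are the value of Irf1 (1.11 ± 1.67 over both origins), which was at 64.0 and 0 FPKM in circulating ex-Tcirc. Bcl2l1, Csf2, Gadd45b and Plk3 were also at 0 in circulating ex-Tcirc replicate 1, replicate 2 or both. These medians thus depend on zeros in shallow libraries. Within ex-TRM it was 0.15, beside -0.06, and 6 of 9 targets were higher in tissue.

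**Figure D5:**
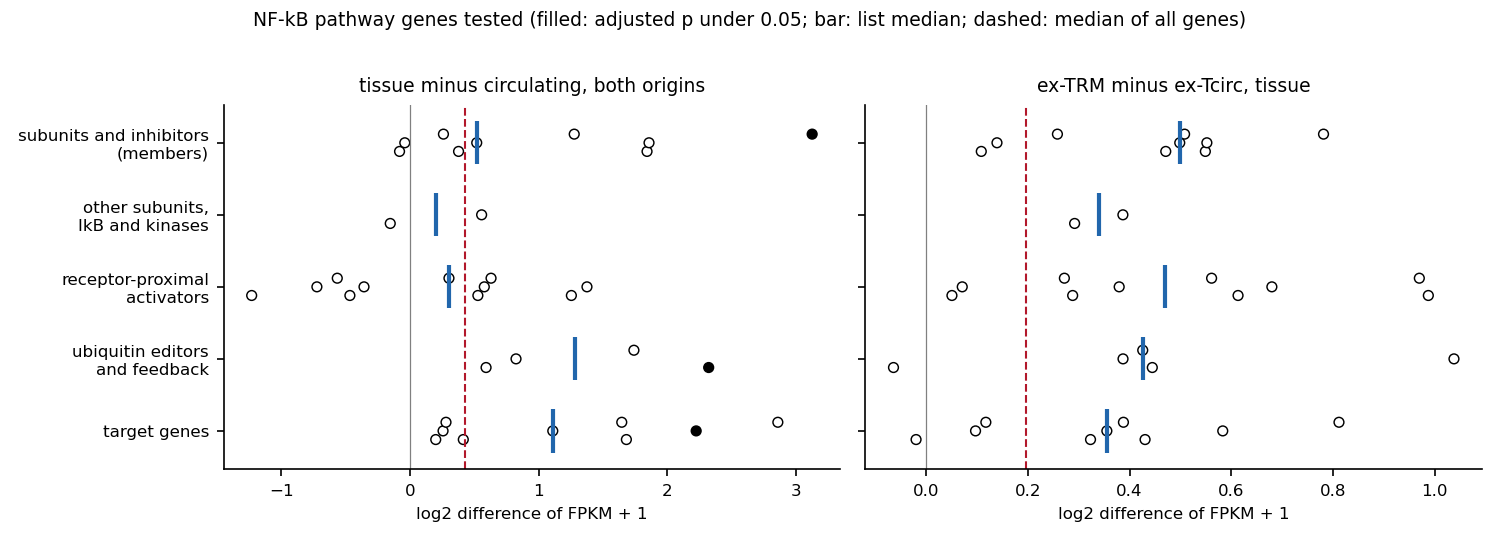
Log2 difference of FPKM + 1 (horizontal axes) for each tested gene of the NF-κB lists, in tissue minus circulating over both origins (left) and ex-TRM minus ex-Tcirc in tissue (right); filled points passed at an adjusted p under 0.05, blue bars are list medians and the dashed line is the median of all genes tested. Nfkbid, Rbck1 and Csf2 are the filled points, and none is filled on the right.

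Genes with a pattern most like that of the highest gene were found over the 7 libraries by Pearson correlation of log2(FPKM + 1) among the genes tested. For Tnfaip3 they were Lncpint (r = 0.984), Supt6 (r = 0.972) and Son (r = 0.954), which were above 0 in all 7 libraries and lowest in tissue ex-Tcirc replicate 1. For Nfkbid they were Gabbr1 (r = 0.9996), Acsbg1 (r = 0.9993) and Traj2 (r = 0.9988), all at 0 in both circulating ex-Tcirc libraries. These values describe 7 libraries on the same FPKM scale that differ widely in depth. Those for Nfkbid include the zeros shared in the shallow circulating ex-Tcirc libraries.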

How the data were processed

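The deposited values are FPKM per gene name for 8 RNA-seq libraries, per the file headers. StringTie 3.0.1, HISAT2 2.2.1, Trim Galore 0.6.7 and the build mm10 are among the names in the submitters' processing notes, with no role given. Per the labels' protocols the libraries were strand-specific. The annotation is not given in the sources used here, and the 14 ATAC-seq samples were not analysed here. Values of a gene name listed more than once were summed. Read totals are unknown, so depth was estimated from the spacing of low values, and no interval on counts is given.

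The test was limma 3.58.1 (R 4.3.3) with an intensity trend on log2(FPKM + 1), which understates the change of low genes. It took genes with a mean of at least 20 FPKM, adjusted p over all of them by Benjamini-Hochberg, and used a threshold of 0.05, two-sided. One fit of 7 libraries gave 5 comparisons, and the 4 tissue libraries gave the sixth. Simulations of the fit altered 66 genes each at log2 changes of 1, 2 and 4. Tissue minus circulating over both origins recovered 0%, 12.1% and 48.5% of them. Within ex-Tcirc these shares were 1.52%, 6.06% and 31.8%, and between origins in tissue 30.3%, 75.8% and 92.4%. A gene that did not pass is therefore not read as unchanged. The members, lists, markers and settings were chosen with earlier results of these data known, and lists are described by counts and medians only. Named genes were the members, list genes that passed in any comparison, the 2 highest of each list by mean, and the 3 genes most correlated with the highest member and with the member of largest difference. Alternatives were other pseudocounts, minimums, scalings, library sets and weights, the replicate number as a term, the highest row per name, and leaving out each library. The summed level of 1 marker list is not reported here.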

Additional observations from a re-analysis of the deposited data

Results flagged for a closer look

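Circulating ex-TRM replicate 1, treated as missing in every comparison, listed 1 of the 10 genes above 0. Nfkb1 was at 45.3 FPKM there, with the other 9 genes at 0, in a library that listed 917 of 55291 gene names above 0. It is given because it is a signal in a library outside the comparisons. The other circulating ex-TRM library had 125 FPKM of Nfkb1.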

How the results depend on the processing

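Counts of genes called moved with most choices. Tissue minus circulating over both origins called 195 genes, but 2259 at a mean of at least 5 FPKM, 3618 at 1 FPKM in 2 libraries, 4675 with no minimum, 1 with genes above 0 in every library, 67 with median-of-ratios factors, 113 as TPM, 0 with library weights, 0 with all 8 libraries, 66 without both circulating ex-Tcirc libraries (chosen after the data were seen), and 0 to 1860 when 1 library was left out. Within ex-Tcirc the count of 242 became 2640, 5984, 4238 and 13 under the same 4 minimums, 0 with weights, 0 with 8 libraries, and 0 to 1969 without 1 library. Within ex-TRM the count of 0 became 1629 with no minimum, 86 with weights and 0 to 60 without 1 library. Between origins in tissue it was 5 with median-of-ratios factors, 3 as TPM and 0 to 429 without 1 library, the 429 without tissue ex-Tcirc replicate 2. In circulation the count of 176 became 2243, 4400, 4490 and 0 under the 4 minimums, 0 with weights, 0 with 8 libraries, and 0 to 1804 without 1 library. The difference between origins had 4 calls, but 179 with 0.1 added to FPKM, 2013, 2099, 3863 and 0 under the 4 minimums, 0 with median-of-ratios factors, 0 with weights, 0 with 8 libraries, and 0 to 1704 without 1 library. Member counts without circulating ex-Tcirc replicate 1 or 2 are not given, since each circulating group then held 1 library. The cause of these shifts was not tested.

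No pairing by replicate number was visible, as differences between replicates 1 and 2 correlated at 0.01, -0.04 and -0.09 between groups. Circulating ex-TRM could not enter, and the last 2 values involve the shallow circulating ex-Tcirc libraries, so pairing is not excluded. With the replicate number as a block, the counts were 0 over both origins, 158 within ex-Tcirc, 0 within ex-TRM, 3 between origins in tissue, 0 in circulation and 0 for the difference between origins. Nfkbid over both origins kept its log2 difference of 3.13 with the block, at an adjusted p of 0.165 by limma.

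Signs turned over both origins for Nfkb2 (-0.82), Nfkbib (-1.0) and Nfkbiz (-0.028) without both circulating ex-Tcirc libraries. They also turned for Nfkbia (0.12 with median-of-ratios factors, 2.05 with 8 libraries) and Tnfaip3 (0.16 with those factors, 0.030 with the block, 2.28 with 8 libraries). Leaving out 1 library gave ranges of -1.31 to 2.07 for Nfkb2, -0.10 to 2.65 for Rela and -0.17 to 0.093 for Tnfaip3. Between origins in tissue, Rela was at -0.10 and Birc3 at -0.076 with the same protein-coding sum, and Rela spanned -0.31 to 0.53 without 1 library. Scaling moved the median of all genes over both origins by 0.19 with median-of-ratios factors, -0.20 as TPM and -0.11 with the same protein-coding sum. The 2 shallow libraries limit what can be said of genes at every level, since 12.9% of genes at 200 FPKM or more were at 0 in circulating ex-Tcirc replicate 2.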
